A study of Sus scrofa with 8 samples.

Results

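The signals of 5 transcription factors of testicular somatic cells were read from porcine Agilent arrays hybridized with testis RNA of 8 Large White boars. The members were SOX9, WT1, GATA4, NR5A1 and NR0B1. They were found through the RefSeq accession that the scanner files give for each probe, and each had 1 probe with 1 spot, so that 5 of the 43603 probes on the array, or 5 of the 2228 genes that had a name, were followed. The 4 boars m_9597, m_9599, m_9499 and m_9527 ate feed enriched in methionine, choline, betaine, folate and the vitamins B6 and B12 from month 1 to month 10 of life. The 4 control boars m_9598, m_9600, m_9502 and m_9528 ate feed without this enrichment. The boars m_9597, m_9598, m_9599 and m_9600 were full brothers of one litter and shared 1 slide, and the other 4 boars, whose litters are not assigned in the sources used here, shared the other slide. Litter and slide therefore cannot be told apart. Each slide held 2 boars of each diet. The supplemented boars always took the places 1 and 3 of their slide and the control boars the places 2 and 4, and diet and place cannot be separated either.

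The somatic cells of the testis decide its fate and then keep it. In the embryonic gonad WT1, GATA4 and NR5A1 act together to prepare the bipotential tissue and to switch on the male pathway, and SOX9 then turns the supporting cells into Sertoli cells, which later nurse the germ cells. In the grown testis SOX9 and WT1 are typical of Sertoli cells, while GATA4 is found in Sertoli and Leydig cells. NR5A1, also called steroidogenic factor 1, drives the steroid genes of Leydig cells and also works in Sertoli cells. NR0B1, or DAX1, is an orphan nuclear receptor without a DNA-binding zinc finger domain, which binds NR5A1 and represses its targets. In RNA from a piece of whole testis, fewer cells of a type and less RNA per cell cannot be told apart.

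The median spot intensity lay between 108 and 192.5 over the 8 arrays, 4.91 to 7.40 times the local background, and 76.3% to 86.5% of the spots were well above background. Intensities were taken as log2 of the median signal without background subtraction and quantile-normalized, and a probe was tested if 2 or more arrays of either diet showed it as present. This left 36982 probes, the 5 members among them. Marker genes of the labelled tissue were measured well above background. All 14 probes of 11 germ cell genes, 11 of the 12 probes of Sertoli cell genes and 15 of the 16 probes of Leydig cell genes were so on all 8 arrays. The germ cell list varied from -0.33 to 0.22 between boars (list median on the log2 scale, with the mean over the 8 boars set to 0), the Sertoli cell list from -0.20 to 0.22 and the Leydig cell list from -0.92 in m_9527 to 1.09 in m_9499, both on the supplemented diet. No probe of a marker list had a limma P-value under 0.05 between the diets. The duct epithelium list ran from -1.84 in m_9597 to 1.44 in m_9598, and the macrophage list was highest in m_9600 at 0.67. Their part in the results on the 5 factors was not tested. The accession gives the name of each probe, but the probe sequences of the 5 factors are not given in the sources used here, and none is shown.

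SOX9, the master regulator of Sertoli cell fate, was detected well above background in every boar, at 8.15 to 15.8 times the local background. On the supplemented diet its log2 signal was 8.14 in m_9597, 8.06 in m_9599, 7.61 in m_9499 and 8.64 in m_9527. On the control diet it was 8.18 in m_9598, 8.07 in m_9600, 7.58 in m_9502 and 7.52 in m_9528. The groups overlapped, and only m_9527 stood above every control boar. The means were 8.11 ± 0.42 and 7.84 ± 0.33 (each SD, n = 4). The log2 fold change, supplemented minus control, was 0.28 (SE, the standard error, 0.24, limma adjusted p = 0.840). The 95% interval allows anything from 0.828-fold to 1.77-fold. The 4 brothers were nearly alike, with an SD of 0.055 on the log2 scale against 0.54 among the other 4 boars. Accordingly the diet difference was -0.02 in the brothers and 0.57 in the other 4 boars, where it was carried by m_9527.

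WT1, the zinc finger factor that maintains Sertoli cells, gave a bright and steady signal at 60.3 to 125 times the local background. Its log2 signal was 11.15, 11.17, 10.91 and 10.91 in the supplemented boars m_9597, m_9599, m_9499 and m_9527. In the control boars m_9598, m_9600, m_9502 and m_9528 it was 11.16, 11.28, 11.03 and 10.89. The diet groups lay on top of each other, with means of 11.04 ± 0.14 (SD, n = 4) and 11.09 ± 0.17 (SD, n = 4) and a log2 fold change of -0.06 (SE 0.15, limma adjusted p = 0.925). Its interval, from 0.765-fold to 1.21-fold, was the narrowest of the 5, and its spread within the diets was smaller than that of all but 11.7% of the tested probes. All 4 brothers were above all of the other 4 boars. The share of all tested probes that separate the slides in this way was not counted. Between the slides 8.11% of all tested probes had a limma P-value under 0.05, and WT1 was not among them. The brothers averaged 11.19 ± 0.059 (SD, n = 4) and the others 10.94 ± 0.063 (SD, n = 4), a difference of 0.25 (SE 0.12, limma adjusted p = 0.624). With a boar left out this small difference lay between 0.23 and 0.28. Its direction could not turn, since the brothers and the other boars do not overlap.

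GATA4, a zinc finger factor that binds GATA motifs in the genes of AMH, inhibin and steroid enzymes, was the probe nearest to background, at 2.28 to 3.70 times its local level, and was nevertheless well above background on all 8 arrays. Without background subtraction a difference in such a dim probe is understated. Its log2 signal was 6.05 in m_9597, 6.01 in m_9599, 5.87 in m_9499 and 6.60 in m_9527. The control boars m_9598, m_9600, m_9502 and m_9528 stood close together at 6.05, 5.97, 5.95 and 6.01. One supplemented boar, m_9527, lay above all others, and one, m_9499, below all others. The means were 6.13 ± 0.32 (SD, n = 4) and 5.99 ± 0.043 (SD, n = 4), a log2 fold change of 0.14 (SE 0.17, 95% interval -0.25 to 0.53, limma adjusted p = 0.858). Without m_9527 it was -0.02.

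NR5A1 varied most among the 5 factors, 2.32-fold between the lowest and the highest boar, at 10 to 34.5 times the local background. Among the supplemented boars its log2 signal was 8.23 in m_9597, 8.12 in m_9599, 9.03 in m_9499 and 8.13 in m_9527. Among the control boars it was 9.21 in m_9598, 8.39 in m_9600, 7.99 in m_9502 and 8.38 in m_9528. One boar of each diet, m_9499 and m_9598, stood at about 9 while the other 6 lay between 7.99 and 8.39. The means were 8.38 ± 0.44 (SD, n = 4) and 8.49 ± 0.51 (SD, n = 4), a log2 fold change of -0.11 (SE 0.29, limma adjusted p = 0.923), and the interval from 0.586-fold to 1.46-fold reached lowest of the 5. Within the brothers the difference was -0.62, and within the other boars 0.40, each from 2 boars against 2. The diet by slide interaction was -1.02 (SE 0.54, limma adjusted p = 1), and the diet fold change turned to 0.13 without m_9598.

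NR0B1 was bright, at 67.1 to 106 times the local background. It stood at 11.25 in m_9597, 11.28 in m_9599, 10.74 in m_9499 and 11.39 in m_9527 on the log2 scale. The control boars m_9598, m_9600, m_9502 and m_9528 had 11.11, 11.53, 11.28 and 11.20. Apart from the low value in m_9499, the boars of both diets shared one range. The means were 11.17 ± 0.29 (SD, n = 4) and 11.28 ± 0.18 (SD, n = 4), a log2 fold change of -0.11 (SE 0.18, 95% interval -0.52 to 0.29, limma adjusted p = 0.879). Without m_9499 it was 0.03.

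**Figure D1:**
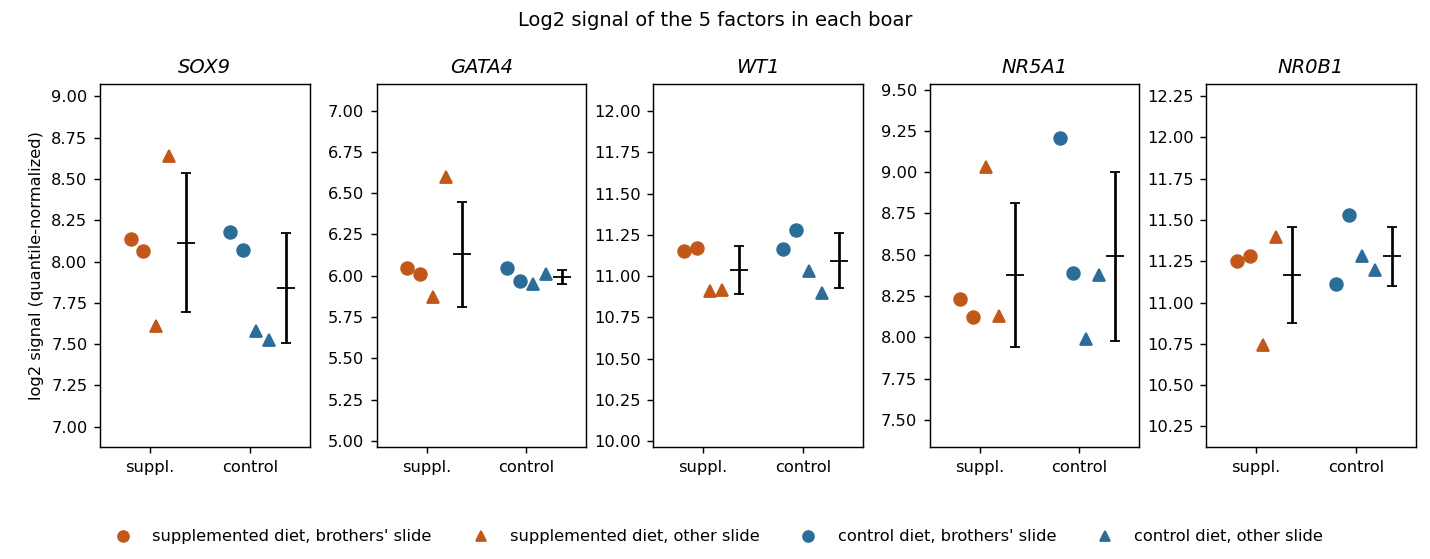
Log2 signal (vertical axes, each spanning the same range around the mean of the gene) of SOX9, GATA4, WT1, NR5A1 and NR0B1 in each of the 8 boars, by diet (colour) and slide (circles for the brothers, triangles for the other boars), with the mean and SD of each diet group in black. The diets overlap in all 5 genes, m_9527 is high for SOX9 (8.64) and GATA4 (6.60), and the circles lie above the triangles for WT1.

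None of the 5 probes had a limma P-value under 0.05 between the diets, where 689 of all tested probes had one, 1.86% of them. None of the 5 and none of all tested probes (0%) was under 0.05 after Benjamini-Hochberg adjustment over the 36982 probes, and the smallest adjusted P-value of the array was 0.476. In none of the 5 did the diet groups fail to overlap, against 418 or 1.13% of all tested probes. The two-sided exact permutation tests gave p = 0.371 for SOX9, 0.714 for GATA4 and WT1, 0.571 for NR5A1 and 0.657 for NR0B1, where 4 boars against 4 cannot go below 0.0286. The fold changes of GATA4, WT1, NR5A1 and NR0B1 were smaller in size than the median of 0.17 over all tested probes, and that of SOX9 was larger. These P-values do not show that the genes were alike on both diets, since the intervals run from 0.765-fold to 1.21-fold for WT1, the narrowest, and from 0.828-fold to 1.77-fold for SOX9. With the slide as a block no member was under 0.05, and the adjusted P-values from limma lay between 0.797 for SOX9 and 0.914 for NR5A1.

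**Figure D2:**
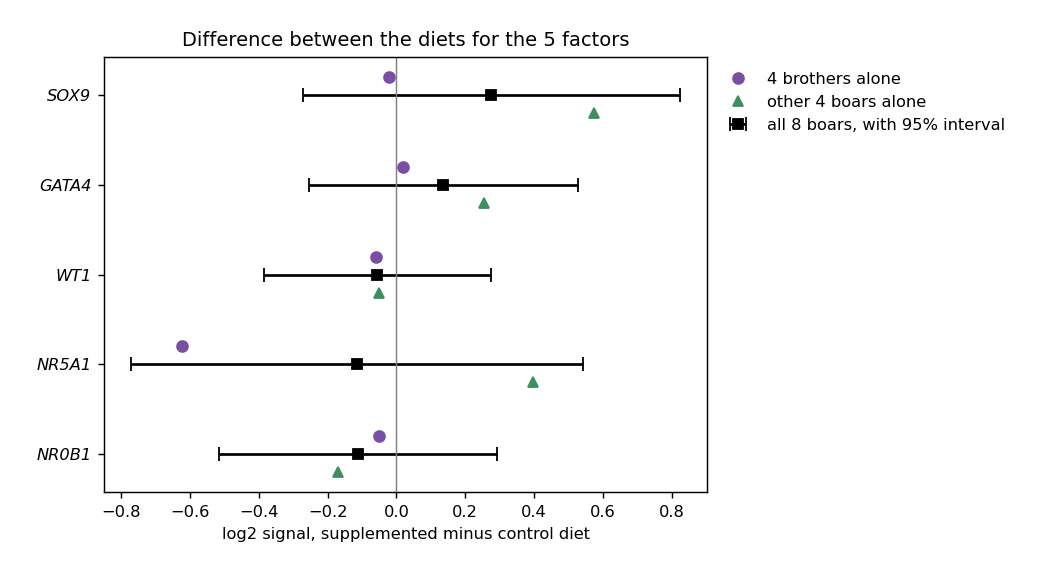
Difference in log2 signal between the diets (horizontal axis, supplemented minus control) for the 5 factors, as the mean of all 8 boars with its 95% interval from limma (black squares), in the 4 brothers alone (circles) and in the other 4 boars alone (triangles). All 5 intervals include 0, the values within the slides lie close together for WT1 (-0.06 and -0.05), and they lie on both sides of 0 for NR5A1 (-0.62 and 0.40).

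The slides, which here are also the litter of brothers and the rest, were compared in the same way. No member had a limma P-value under 0.05, where 8.11% of all tested probes did, and after adjustment none of the members and none of all probes (0%) was under 0.05. Besides WT1, the difference between the brothers and the other boars was 0.27 for SOX9, 0.14 for NR0B1, 0.11 for NR5A1 and -0.09 for GATA4 on the log2 scale, with adjusted P-values from limma between 0.737 and 0.930. SOX9 depended on m_9527, without which the brothers were higher by 0.54 (limma adjusted p = 0.735, under 0.05 before adjustment). The diet by slide interaction had a P-value under 0.05 in none of the 5, against 2% of all tested probes. It was under 0.05 for NR5A1 without m_9600 (-1.43) or without m_9527 (-1.47), and for SOX9 without m_9499 (-1.11), with adjusted P-values from limma of 0.960 or more.

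Set against each other over the 8 boars, the 5 factors form 10 pairs. SOX9 and GATA4 had the highest correlation, with Pearson's r = 0.79 (exact permutation test, p = 0.00813, adjusted over the 10 pairs 0.0813) and Spearman's rho = 0.75 (exact permutation test, p = 0.0397, adjusted 0.397). The relation does not pass the adjustment. Without m_9527 and m_9528, the boars farthest from the median of SOX9, r was 0.85, and the brothers then lay above m_9499 and m_9502 in both genes. With the mean of each slide subtracted r was 0.97, which rests largely on m_9527. The boars m_9499, m_9502 and m_9528 of its slide ran the opposite way, with SOX9 at 7.61, 7.58 and 7.52 and GATA4 at 5.87, 5.95 and 6.01. Without m_9527 alone r was 0.62 (exact permutation test, p = 0.126), and the only pair then under 0.05 was SOX9 with WT1, at r = 0.89 (exact permutation test, p = 0.0198, not adjusted) against 0.28 with all boars. In those 7 boars the brothers lay above the other boars in both genes. With each array scaled to its 75th percentile in place of quantile normalization it was 0.61, and with the background-subtracted signal scaled in that way 0.67, neither with an exact permutation P-value under 0.05. NR5A1 and its repressor NR0B1 had r = -0.68 (exact permutation test, p = 0.0658, adjusted 0.329) and rho = -0.52 (exact permutation test, p = 0.197, adjusted 0.655). This rested on the boars with the most NR5A1: without m_9598 and m_9499 r was 0.23. The exact permutation p of Pearson's r in the other 8 pairs was 0.233 or more.

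Since NR5A1 and NR0B1 act on the steroid genes of Leydig cells, the 5 factors were also set beside the medians of the Sertoli, Leydig and germ cell marker lists, 15 relations in all, which were chosen after seeing the data. None of the lists holds one of the 5 factors. The boar m_9499, with the highest Leydig cell median, had the lowest NR0B1 and the second highest NR5A1. The boar m_9527, with the lowest Leydig cell median, had the highest normalized SOX9 and GATA4. It also had the lowest Sertoli (-0.20) and germ cell (-0.33) medians and the dimmest array, with a median intensity of 108. Before normalization its SOX9 signal of 280 was below 395 in m_9598 and 317 in m_9599. Its GATA4 signal of 74 was below 83 in m_9598 and 81 in m_9528. Over the 8 boars NR5A1 and the Leydig cell median had r = 0.75 (exact permutation test, p = 0.0284, adjusted over the 15 relations 0.191) and rho = 0.79 (exact permutation test, p = 0.0279, adjusted 0.344). Without m_9499 and m_9527, the boars farthest from the middle, r was 0.71. For NR0B1 r was -0.77 (exact permutation test, p = 0.0336, adjusted 0.191) and rho -0.74 (exact permutation test, p = 0.0458, adjusted 0.344), and r was -0.36 without the same pair. For GATA4 r was -0.74 (exact permutation test, p = 0.0450, adjusted 0.191) and rho -0.47 (exact permutation test, p = 0.244, adjusted 0.802). Without the pair r was 0.26, so that this relation rests on those boars. For SOX9 r was -0.69 (exact permutation test, p = 0.0509, adjusted 0.191), with rho = -0.43 (exact permutation test, p = 0.299, adjusted 0.802) and r = -0.21 without the pair. WT1 had r = -0.17 to the Leydig cell median (exact permutation test, p = 0.700). With the Sertoli and germ cell medians no member reached an exact permutation p under 0.1. No relation passed the adjustment.

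**Figure D3:**
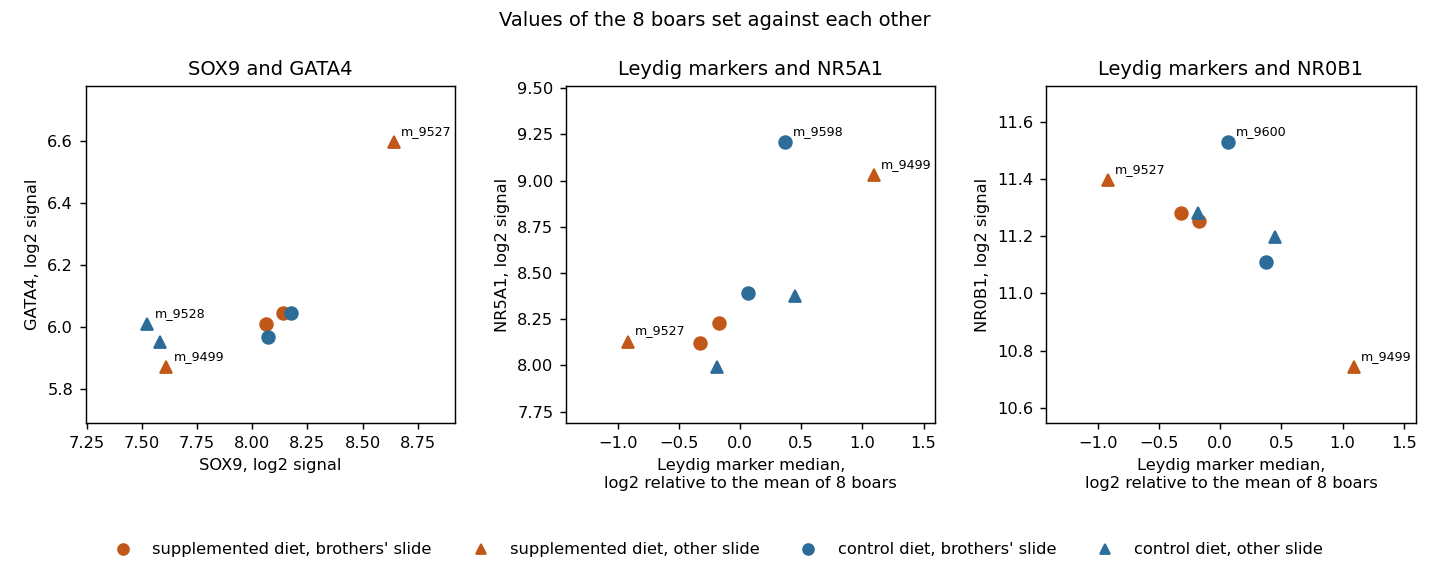
Log2 signal of GATA4 against SOX9 (left), and of NR5A1 (middle) and NR0B1 (right) against the median of the Leydig cell markers in the same boar (log2 relative to the mean of the 8 boars), with 1 point per boar, coloured by diet and shaped by slide. The boar m_9527 is at the top for SOX9 and GATA4 and has the lowest Leydig cell median (-0.92), while m_9499 has the highest (1.09) together with an NR5A1 of 9.03 and an NR0B1 of 10.74.

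The Leydig cell list has 16 present probes, and they do not all follow its median. Of these 8 were highest in m_9499 and 9 lowest in m_9527, and 7 had both ends there. They are the probes of STAR, CYP11A1 and CYP17A1, which also make up the median that set these boars at its ends. STAR, which brings cholesterol into the mitochondrion, had a log2 signal of 13.69 in m_9499 and 10.15 in m_9527, and lay between 10.66 and 12.18 in the other 6. The 3 probes of CYP11A1, the enzyme that cleaves the cholesterol side chain, were also highest in m_9499 (9.09, 12.55 and 12.80) and lowest in m_9527 (7.79, 9.37 and 10.13). LHCGR, the receptor of luteinizing hormone, was highest in m_9499 (12.01) and lowest in m_9599 (9.83). INSL3, the Leydig cell hormone, was highest in m_9528 (18.74), as were both HSD3B1 probes. Quantile normalization gives each rank a fixed value, and for the very bright INSL3 the same values recur, such as 18.60 in m_9597 and m_9502. Both end boars of STAR and CYP11A1 ate the supplemented diet, and with all 8 boars the diet means of these genes did not differ beyond their spread. This depended on m_9499. Without it STAR (log2 fold change -0.92), LHCGR (-0.86) and the 3 CYP11A1 probes (-0.65, -1.08 and -0.81) were lower with the supplement. Their limma P-values were then 0.0106 to 0.0425, where 751 of all tested probes were under 0.05, and none passed the adjustment. Without m_9527 STAR turned to 0.25.

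For each factor the genes with the most similar pattern over the 8 boars were looked up among 2122 named genes by Pearson's r. They are given as a description, since the highest of so many values is large in any case. SOX9 was most like B4GALT3 (0.90), ADAM10 (0.89) and LMO4 (0.87). GATA4 was most like PON3 (0.98), GHSR (0.97) and SPAI-2 (0.92). The WT1 pattern was closest to RPS16 (0.93), NTF3 (0.92) and LPL (0.91), but with the mean of each slide subtracted RPS16 had 0.51, and for NTF3 and LPL it was 0.80 and 0.81. For NR5A1 they were SELP (0.94), or P-selectin, CBR1 (0.93), a carbonyl reductase, and GSTA1 (0.91), a glutathione transferase. For NR0B1 they were KLF12 (0.92), ACKR4 (0.92) and COL5A3 (0.91). With slide means subtracted the values for SOX9, GATA4, NR5A1 and NR0B1 lay between 0.89 and 0.99.

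Of 44 other gonadal transcription factors and cofactors, 13 were present, with 14 probes. Of these 4 had a limma P-value under 0.05, 2 higher and 2 lower with the supplement, where 1.86% of all tested probes had one. The diets did not overlap in 4, against 1.13% of all tested probes. FOXL2, which passed the presence filter through the supplemented boars alone, is in both counts of 4. The list median was a log2 fold change of -0.02, against 0.00 over all tested probes. The 4 probes under 0.05 and the 4 without overlap all carry names from the table of annotated probes that the study made from its own differences between these boars, so their direction and count are no independent evidence. Of the 9 probes named by accession none was under 0.05 and none was without overlap. A probe counted as named by accession only where that table gave it no name. Differing probes were thus largely taken out of these 9 beforehand, and their count is no independent check either.

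NR2F2, or COUP-TFII, an orphan nuclear receptor of interstitial cells of the testis, had the lowest fold change of this list. Its probe A_72_P120271 had a log2 signal of 10.65, 10.66, 10.29 and 10.70 in m_9597, m_9599, m_9499 and m_9527, and of 11.03, 11.28, 11.24 and 11.50 in m_9598, m_9600, m_9502 and m_9528. Every control boar was above every supplemented boar, and the log2 fold change was -0.69 (SE 0.16, limma adjusted p = 0.840). The probe A_72_P255037 gave 10.27, 10.29, 9.84 and 10.11 against 10.48, 10.79, 10.77 and 10.86 in the same order, again without overlap, and a log2 fold change of -0.60 (SE 0.16, limma adjusted p = 0.840). These probes of 60 bases overlap on the transcript and so are no independent readings. Their neighbouring ends, the last 30 bases of one and the first 30 of the other, are shown with the 14 shared bases in capitals, 5′ to 3′.
A_72_P255037: atttctctaataagtaAAACACAGGCCCTT
A_72_P120271: AAACACAGGCCCTTttccttgtttgttttg

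FOXL2, a factor of ovarian granulosa cells, was well above background on 4 of 8 arrays, 3 of them from supplemented boars. It counted as present through the supplemented boars alone, so that the filter itself favours a higher value in them. Its limma P-value under 0.05 and its place in the counts of 4 are therefore not read as a diet difference. Its probe stood at 5.45, 5.27, 5.95 and 5.59 in m_9597, m_9599, m_9499 and m_9527 and at 5.21, 4.93, 5.06 and 4.82 in m_9598, m_9600, m_9502 and m_9528. The groups did not overlap, with m_9599 and m_9598 closest, and the log2 fold change was 0.56, close to the limit of detection. TCF7L2, a transcription factor of the Wnt pathway, had a log2 fold change of -0.31 without overlap between the diets. DMRT1, which guards the male fate of Sertoli cells, had a log2 fold change of -0.32 (SE 0.36), GATA6 of -0.04 (SE 0.20) and beta-catenin, CTNNB1, of -0.66 (SE 0.42), none of them with P under 0.05. No present probe was named SOX8.

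**Figure D4:**
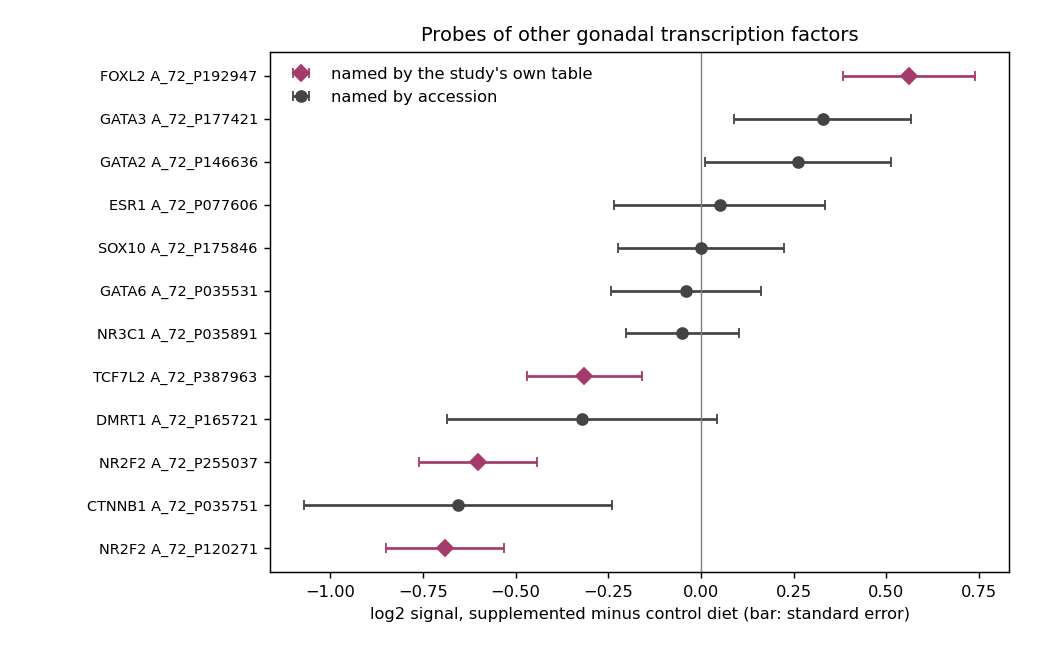
Difference in log2 signal between the diets (horizontal axis, supplemented minus control, bars showing the standard error) for 12 of the 14 present probes of other gonadal transcription factors, with diamonds for probes named by the study's own table of differing probes and circles for those named by accession. The NR2F2 probes lie at -0.69 and -0.60 and FOXL2 at 0.56, and 3 of the 4 diamonds shown had a P-value under 0.05, which none of the 8 circles had. FOXL2, 1 of these 3, passed the presence filter through the supplemented boars alone. Circles are probes that the study's table does not name, so differing probes were largely taken out of them beforehand.

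Of 26 signals and partners of sex determination 8 genes were present with 10 probes. Of these 2 were higher and 2 lower with P under 0.05, where 1.86% of all tested probes were, and the list median was 0.10. Over the 7 probes named by accession the median was -0.04, of the other sign, and 2 were under 0.05, FGF9 and HSD17B4. FGF9, which keeps SOX9 on in the embryonic testis, had 6.50 ± 0.22 with and 6.99 ± 0.38 without the supplement (each SD, n = 4), which makes a log2 fold change of -0.49 (SE 0.21, limma adjusted p = 0.840). RSPO1, a Wnt agonist that favours the ovary, had 7.19 ± 0.22 against 6.74 ± 0.28, a log2 fold change of 0.45 (SE 0.18). MAP3K4, a kinase upstream of the male switch, had 0.55 (SE 0.21) in the probe A_72_P358533 and 0.21 (SE 0.13) in A_72_P147281. HSD17B4, a peroxisomal enzyme of fatty acid oxidation, had -1.29 (SE 0.52). In none of the 10 probes were the diets without overlap, and RSPO1 and MAP3K4 are again named by the study's table.

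Of 42 genes listed here as targets of the 5 factors in Sertoli and Leydig cells, 22 were present with 31 probes. Whether each gene is a target was not tested, and the list was chosen with earlier results of these data known. Only 1 was higher and 1 lower with P under 0.05, where 1.86% of all tested probes were. The list median was -0.15, the same value as for the 29 probes named by accession. None of these 29 was under 0.05, but probes that the study's table names are not among them. The higher one was the prolactin receptor PRLR (0.70, SE 0.23), and the lower one TFPI (-0.84, SE 0.16), an inhibitor of blood clotting, in which alone of the list the diets did not overlap. Both names come from the study's table. The Sertoli cell hormone AMH had -0.15, 0.08 and 0.16 in its 3 probes, the receptor FSHR 0.06 and the inhibin subunit INHA -0.03 and -0.08. Among Leydig cell targets LHCGR had -0.44, STAR -0.14, the 3 CYP11A1 probes -0.35, -0.55 and -0.38, and INSL3, the brightest of them, -0.03. The INSL3 values come from ranks near the top of the array, where the same normalized values recur between boars. Over the 3 lists together 10 probes were under 0.05, 5 without m_9597, without m_9598 or without m_9528, 6 without m_9527 and 21 without m_9499. Among all tested probes 689 were under 0.05, 568 without m_9597, 369 without m_9598, 339 without m_9528, 438 without m_9527 and 751 without m_9499. All 10 had an adjusted p of 0.840 from limma. FOXL2 is 1 of them, and with only probes well above background on all 8 arrays the count was 8.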

How the data were processed

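Testis RNA of 8 boars was labelled with Cy3 and hybridized to 1 Agilent porcine array each, and sperm RNA was not analysed here. The authors deposited the scanner output, in which the intensity of each spot is as Feature Extraction wrote it, and a table of log2 values. The deposited log2 values equal quantile-normalized log2 gMedianSignal to a correlation of at least 0.999998 per array, for the 35258 probes present on 3 of 4 arrays of a diet. The supplementary table of annotated probes gave gene names and the NR2F2 probe sequences, and its fold changes and P-values were not used. This table and RefSeq accessions named 3064 probes.

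Here log2 gMedianSignal of spots that are no controls was quantile-normalized and fitted with limma 3.58.1 in R 4.3.3 (lmFit and eBayes, two-sided, Benjamini-Hochberg). Presence required a signal above 25 and gIsWellAboveBG for at least 50% of the spots. The slide was a block in the slide and interaction fits. Probes were reported singly, and 2 probes of the list of other transcription factors are not reported here by name. Named were every member probe, the 3 genes most like each member, list probes with P under 0.05 and 12 list genes. The members and lists were chosen with earlier results of these data known. In data simulated for the diet comparison on 36982 probes, 92.5% of 8-fold changes were recovered. The noise was independent between boars, with the spread left after fitting diet, slide and their interaction. This checks the fit and gives no power for differences as small as those of the members. Nothing says whether an array stands for more than 1 tissue piece of a boar, so P-values measure the spread between these boars. Alternatives were the signal column, scaling, normexp with an offset of 50, filters, outlier spots, slides alone, trend, array weights and each boar left out. The number of arrays limits the precision. Plots used Python 3.11.15 and matplotlib 3.10.9.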

Additional observations from a re-analysis of the deposited data

Results flagged for a closer look

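Among the 10 groups of 4 boars (5 probes, 2 diets), 1 held a boar set apart by a gap above Dixon's 95% critical value, which chance gives in about 1 in 20 groups. NR5A1 stood at 9.03 in the supplemented boar m_9499, against 8.12 to 8.23 in the 3 others of that diet, and the gap was 0.881 of the whole range. The spot carried no outlier flag. The same boar had the highest Leydig cell marker median, 1.09, and the lowest NR0B1, 10.74.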

How the results depend on the processing

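Under the 13 alternatives and with each of the 8 boars left out, all 5 probes were present and none reached a P-value of 0.05 for diet, adjusted or not. The smallest adjusted P-value of a member from limma was 0.321, for NR5A1. The count of members without overlap was 1 in the brothers' slide alone and 1 in the other slide alone, where 2 boars meet 2 and 37.1% and 22.6% of all tested probes do not overlap (NR5A1 and SOX9). The count of members under 0.05 between the slides was 1 with normexp and 1 without a filter (WT1 in both), and ran from 0 to 1 with a boar left out (SOX9 without m_9527). The interaction count ran from 0 to 1 (without m_9499, m_9600 or m_9527). The pairs under 0.05, 1 with all boars, were 0 with 75th percentile scaling and 2 with gProcessedSignal (NR5A1 with NR0B1, GATA4 with WT1), and 1 to 2 with a boar left out. There were 2 without m_9600, and without m_9527 the pair was SOX9 with WT1 (r = 0.89) in place of SOX9 with GATA4 (r = 0.62). The list count, 10, was 17 in the brothers alone, 4 in the other slide alone and 17 with array weights, and ran from 5 to 21. Over all tested probes 689 were under 0.05, 2381 in the brothers alone, 359 in the others alone, 5830 with array weights and from 339 (without m_9528) to 6155 (without m_9502). It was 369 without m_9598, 438 without m_9527 and 1213 without m_9600. NR5A1 and NR0B1 against the Leydig cell median kept their direction, with r from 0.62 to 0.86 and from -0.92 to -0.43, both weakest without m_9499, and 0.70 and -0.63 with gProcessedSignal.

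Fold changes that turned their sign were small or came from few boars, and the cause was not tested. In the brothers alone SOX9 had -0.022, FSHR -0.20 and INSL3 0.034. In the other slide alone NR5A1 had 0.40, STAR 0.61, INHA (A_72_P024901) 0.047 and the AMH probes A_72_P165316 and A_72_P326123 -0.039 and -0.19. With array weights FSHR had -0.12 and INSL3 0.054, and INSL3 had 0.038 with 75th percentile scaling and 0.036 with gProcessedSignal. With a boar left out, GATA4 ran from -0.018 to 0.22, WT1 from -0.12 to 0.0064, NR5A1 from -0.33 to 0.13, NR0B1 from -0.19 to 0.031, AMH (A_72_P165316) from -0.044 to 0.25, CYP11A1 (A_72_P381703) from -0.81 to 0.079, FSHR from -0.10 to 0.18, GATA6 from -0.16 to 0.13, INHA from -0.076 to 0.025 (A_72_P024901) and from -0.31 to 0.077 (A_72_P146956), INSL3 from -0.069 to 0.011 and STAR from -0.92 to 0.25. The difference between slides ran from -0.21 to 0.079 for GATA4, from -0.16 to 0.39 for NR5A1 and from -0.0024 to 0.26 for NR0B1. No paired analysis was possible because the labels number no replicates. The slide, which is also the litter of brothers, was fitted as a block instead and changed no call of a member. Of the 5 factors GATA4 lay nearest to background.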
